A study of Mus musculus with 10 samples.

Results

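The enzymes that attach fatty acids to proteins and those that remove them made up 36 of the 18055 genes listed in at least one of 10 RNA sequencing libraries of mouse primary hepatocytes. They were chosen by gene name with no threshold on a measured value, though with earlier results of these data known. The set held every gene whose symbol begins with Zdhhc and a digit, together with Golga7, Golga7b, Ppt1, Ppt2, Lypla1, Lypla2, Lyplal1, Abhd10, Abhd17a, Abhd17b, Abhd17c, Hhat, Porcn, Nmt1 and Nmt2. By role, 21 were palmitoyltransferases, 2 were their partner proteins, 9 were thioesterases, 2 were myristoyltransferases and 2 were membrane-bound O-acyltransferases (MBOAT). Another 3 genes of the Zdhhc family in the RefSeq table, Zdhhc19, Zdhhc22 and Zdhhc25, were listed in no library. The filter on low counts kept 33 of the 36. Golga7b, Zdhhc15 and Zdhhc11 did not pass it, with 32, 17 and 1 expected counts in total over the 10 libraries.

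Palmitoylation joins palmitate, taken from palmitoyl-CoA, to cysteines of proteins, which anchors them to membranes and steers their traffic. The transfer is made by the Zdhhc enzymes, named for a zinc finger with the residues aspartate, histidine, histidine and cysteine, and it is reversed by thioesterases in the cytosol, lysosome and mitochondria, so that a protein can pass through repeated cycles. In hepatocytes the fatty acid transporter CD36, heterotrimeric G proteins, Ras proteins, calnexin and the transferrin receptor are among the proteins that carry palmitate. Not every gene of the set acts on that bond: the products of Nmt1 and Nmt2 place myristate on N-terminal glycine, PORCN places palmitoleate on Wnt proteins, and HHAT places palmitate on Hedgehog proteins through an amide.

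The study used RNA sequencing to look at gene expression behind the effect of Neurotropin (NTP), an extract of inflamed rabbit skin, on lipid accumulation caused by free fatty acids (FFA). Hepatocytes of C57BL/6 mice were kept in culture and fell into 5 groups of 2 libraries each. Vehicle cells received neither FFA nor NTP, PA cells received 200 μM palmitate for 24 h, and LA cells received 12 μM linoleate for 24 h. PA+NTP and LA+NTP cells received NTP for 1 h (0.4 NU/mL by the study's text) before the same FFA treatment. Palmitate is saturated and linoleate polyunsaturated, and their doses differed, so kind and dose of FFA cannot be told apart. NTP without FFA was not analysed here. Whether the replicates came from separate animals or cultures is not stated in the sources used here, so each p-value measures only the spread between these libraries, which may be technical.

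Library totals ran from 13142588 expected counts (PA replicate 1) to 60046937 (LA+NTP replicate 2), with 15211 to 16318 genes listed per library. The hepatocyte marker Alb stood at 1929 to 2818 FPKM (fragments per kilobase of transcript, scaled to the depth of the library), while Cps1 and Tat stood at only 1.52 to 4.61 and 3.64 to 8.51 FPKM. The sum of 8 hepatocyte markers was 3603 to 3786 FPKM in Vehicle, 2612 to 2824 in PA, 3097 to 3419.9 in PA+NTP, 3647 to 3693 in LA and 4242 to 4472 in LA+NTP. The sum of 6 Kupffer cell and macrophage markers was 205 in both Vehicle libraries, 201 to 236 in PA, 264 to 294 in PA+NTP, 123 to 128 in LA and 179 to 192 in LA+NTP, nearly all of it Cd68, with Clec4f and Vsig4 at or below 0.300 FPKM. The 5 stellate cell markers summed to 5.19 to 5.42 FPKM in Vehicle, 3.53 to 3.75 in PA, 5.02 to 5.19 in PA+NTP, 4.03 to 4.39 in LA and 5.91 to 6.42 in LA+NTP. In the same order of groups the sum of 4 cholangiocyte markers was 11 to 13.0, 7.68 to 8.10, 12.4 to 13.0, 9.67 to 9.98 and 14.5 to 14.6 FPKM, and that of 5 markers of sinusoidal endothelium 21.1 to 21.3, 16.1 to 16.5, 15.6 to 17.5, 18.2 to 18.9 and 21.6 to 21.9 FPKM. The stellate and cholangiocyte sums were lowest in the FFA-only groups. The cholangiocyte sum was nearly all Sox9, and Krt19 did not share its order. Krt19 stood at 0.64 and 0.67 FPKM in Vehicle, 0.20 and 0.31 in PA, 0.15 and 0.38 in PA+NTP, 0.56 and 0.65 in LA and 0.85 and 0.92 in LA+NTP. The part of these marker differences in the results that follow was not tested. In such bulk samples fewer cells of a type and less RNA per cell cannot be told apart.

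Promoters are shown for the genes called in the same direction with both FFA, so that their letters can be read beside the values. Each line gives the 250 bases before the 1 start that RefSeq's promoter table uses for the gene, on the gene's strand and on GRCm38.p6. The capitals mark matches to the GC box (GGGCGG or CCGCCC, the letters bound by Sp family factors) and to the CCAAT box (CCAAT or ATTGG) on either strand. Lypla2, Zdhhc8 and Zdhhc12 had lower levels with FFA alone, and Abhd17b and Zdhhc21 higher levels.
Lypla2: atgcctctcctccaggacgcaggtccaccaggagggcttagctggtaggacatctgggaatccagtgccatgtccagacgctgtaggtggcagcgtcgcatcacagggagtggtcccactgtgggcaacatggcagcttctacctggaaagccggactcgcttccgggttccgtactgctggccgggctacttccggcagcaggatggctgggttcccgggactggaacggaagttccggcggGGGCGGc
Zdhhc8: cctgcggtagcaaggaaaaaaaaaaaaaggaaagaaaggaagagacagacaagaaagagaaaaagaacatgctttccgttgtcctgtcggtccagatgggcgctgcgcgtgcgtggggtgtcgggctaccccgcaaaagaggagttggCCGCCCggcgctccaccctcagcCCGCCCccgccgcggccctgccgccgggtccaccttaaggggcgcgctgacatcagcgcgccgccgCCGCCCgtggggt
Zdhhc12: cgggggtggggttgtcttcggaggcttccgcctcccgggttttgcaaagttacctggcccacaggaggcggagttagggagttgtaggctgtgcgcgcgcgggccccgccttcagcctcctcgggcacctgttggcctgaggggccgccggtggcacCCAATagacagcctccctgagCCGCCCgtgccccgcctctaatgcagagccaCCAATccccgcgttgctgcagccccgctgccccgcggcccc
Abhd17b: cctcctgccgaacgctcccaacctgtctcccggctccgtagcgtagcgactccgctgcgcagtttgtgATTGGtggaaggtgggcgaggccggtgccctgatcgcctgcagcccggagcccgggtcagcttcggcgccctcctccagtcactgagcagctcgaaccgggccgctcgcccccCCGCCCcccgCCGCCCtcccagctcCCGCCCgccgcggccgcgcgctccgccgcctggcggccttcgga
Zdhhc21: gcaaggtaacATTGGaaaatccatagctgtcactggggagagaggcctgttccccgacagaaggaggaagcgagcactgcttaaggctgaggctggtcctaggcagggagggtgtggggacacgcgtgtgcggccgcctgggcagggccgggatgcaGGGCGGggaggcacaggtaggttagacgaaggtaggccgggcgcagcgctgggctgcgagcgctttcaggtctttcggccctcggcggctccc
They lie at chr4:135972595-135972844 on the minus strand (Lypla2), chr16:18235137-18235386 on the minus strand (Zdhhc8), chr2:30093636-30093885 on the minus strand (Zdhhc12), chr19:21653059-21653308 on the plus strand (Abhd17b) and chr4:82859674-82859923 on the minus strand (Zdhhc21). The annotated genes of Lypla2, Zdhhc12, Abhd17b and Zdhhc21 begin further upstream than that start, for Zdhhc21 beyond the whole window, so these windows are not the promoters of every transcript. The GC box occurred 3 times before Zdhhc8 and Abhd17b and 1 time before Lypla2, Zdhhc12 and Zdhhc21, so both directions of change were found with it. The CCAAT box occurred 2 times before Zdhhc12, 1 time before Abhd17b and Zdhhc21, and 0 times in the windows of Lypla2 and Zdhhc8. A promoter sequence was matched for 28 of the 36 genes. Of these, 21 (75%) held the GC box against 32.9% of 27025 mouse promoters of this length, and 35.7% held the CCAAT box against 34.5%. The E-box CACGTG was found in 10.7% against 6.0%, the core letters of the NRF1 site (GCGCATGCG or CGCATGCGC) in 7.1% against 1.5%, and the cyclic AMP response element TGACGTCA in 0 of 28 against 1.6%. The median GC content of the 28 promoters was 61.6% against 52.0% for all promoters, and the GC box is itself made of G and C. The 27025 promoters were not limited to genes expressed in these libraries. For Nmt1, Zdhhc1, Zdhhc9, Zdhhc20 and Zdhhc23, which held the GC box, the bases after the start were not found near a GENCODE transcript start.

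Levels of the 33 tested genes spanned 283-fold, from Ppt1 at the top to Hhat at the bottom. Mean FPKM over the 10 libraries was at least 30 for 8 genes (Ppt1, Nmt1, Golga7, Lypla1, Zdhhc6, Lypla2, Zdhhc5 and Zdhhc9). It lay between 10 and 30 for another 8 (Nmt2, Zdhhc18, Zdhhc12, Ppt2, Abhd17c, Abhd17a, Zdhhc16 and Lyplal1). It lay between 1 and 10 for 13 and under 1 for 7, among them Porcn, Zdhhc14, Zdhhc23 and Hhat. Genes at 30 FPKM or more were found in every role except the MBOAT class. Zdhhc5, Zdhhc6 and Zdhhc9 were the top 3 palmitoyltransferases in every library and made up 46.8 to 53.9% of the summed Zdhhc FPKM. That sum was 219 ± 1.45 FPKM (SD, n = 2) in Vehicle, 201 ± 2.84 in PA, 228 ± 0.891 in PA+NTP, 197 ± 0.438 in LA and 221 ± 0.269 in LA+NTP. The 2 libraries of PA and the 2 of LA lay below all 6 others. The sum of the 9 thioesterases was 205 ± 4.48 FPKM in Vehicle, 200.0 ± 10.8 in PA, 214 ± 1.06 in PA+NTP, 198 ± 9.38 in LA and 216 ± 3.22 in LA+NTP, and there PA and LA overlapped Vehicle.

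**Figure D1:**
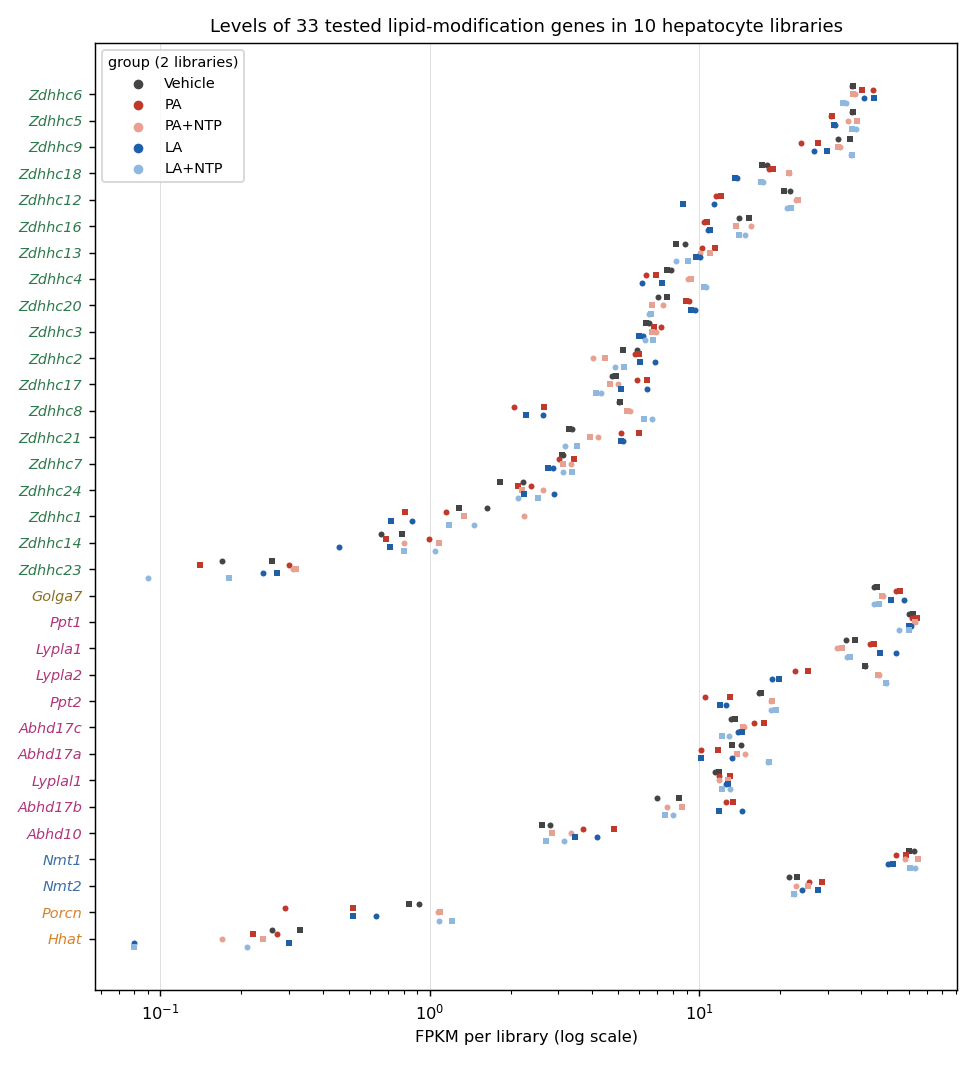
FPKM (log axis) of each of the 33 tested genes in each library, coloured by group, with circles for replicate 1 and squares for replicate 2. Gene names are coloured by role: green palmitoyltransferases, brown partner, purple thioesterases, blue myristoyltransferases, orange MBOAT acyltransferases. Most genes kept their place in all groups, while Lypla2, Zdhhc12 and Zdhhc8 were displaced to the left in PA and LA.

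With palmitate, expression of Lypla2, a cytosolic depalmitoylating thioesterase, of the palmitoyltransferases Zdhhc8 and Zdhhc12, and of Porcn was downregulated. Abhd17b, a thioesterase of Ras proteins, Zdhhc21, which palmitoylates endothelial nitric oxide synthase, and Abhd10, a mitochondrial thioesterase, were upregulated. A gene was called when the adjusted p of edgeR's quasi-likelihood test (Benjamini-Hochberg over 14097 genes) was under 0.05 and the fold was at least 1.5. In PA against Vehicle, 3 of 33 were called higher, where 6.00% of all tested genes were, and 4 of 33 were called lower, where 8.92% of all were. On the adjusted p alone, 11 were higher (23.5% of all genes) and 8 were lower (22.0% of all genes). The median log2 fold change was 0.11 over the 33 and -0.01 over all genes. The call of Porcn was lost without Vehicle replicate 1, Vehicle replicate 2 or PA replicate 1, and that of Abhd10 without Vehicle replicate 2. After removal of the trend with GC content, 0 were called in either direction, where 8.44% of all genes were.

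With linoleate, Lypla2, Zdhhc8 and Zdhhc12 were downregulated, as was Zdhhc1, a palmitoyltransferase of the endoplasmic reticulum, and Abhd17b and Zdhhc21 were upregulated. This comparison shares its Vehicle libraries with the one above. In LA against Vehicle, 2 of 33 were called higher (3.53% of all tested genes) and 4 of 33 lower (7.11% of all). Without the fold threshold, 10 were higher (20.8% of all genes) and 10 were lower (20.5% of all genes). The median log2 fold change was -0.03 over the 33 and -0.01 over all genes. Without LA replicate 2, 4 were called higher, with Lypla1 and Abhd10 added, and the call of Zdhhc1 was lost without any one of the 2 Vehicle or the 2 LA libraries. After removal of the trend with GC content, 0 were called, where 3.23% of all genes were.

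NTP before palmitate was followed by higher expression of Lypla2, Zdhhc8, Zdhhc12, Porcn and Zdhhc1, and by lower expression of Abhd17b and Abhd10. In PA+NTP against PA, 5 of 33 were called higher (8.74% of all tested genes) and 2 of 33 lower (5.11% of all). By the adjusted p alone, 11 were higher (21.7% of all genes) and 11 were lower (23.0% of all genes). The median log2 fold change was -0.05 over the 33 and 0.01 over all genes. The call of Zdhhc1 was lost without PA replicate 2 or PA+NTP replicate 1, and that of Abhd10 without PA+NTP replicate 2 or with library-size scaling. After removal of the trend with GC content, only Zdhhc8 was called (log2 fold change 0.64), where 6.15% of all genes were.

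NTP before linoleate was followed by higher expression of Lypla2, Zdhhc8, Zdhhc12, Porcn and Zdhhc4, the last of which palmitoylates CD36 at the Golgi, and by lower expression of Abhd17b and Zdhhc21. In LA+NTP against LA, 5 of 33 were called higher (11.7% of all tested genes) and 2 of 33 lower (7.57% of all). By the adjusted p alone, 12 were higher (25.9% of all genes) and 12 were lower (25.6% of all genes). The median log2 fold change was -0.06 over the 33 and 0.01 over all genes. Without LA replicate 2, 5 were called lower, with Lypla1, Zdhhc17 and Zdhhc20 added. The call of Porcn was lost without LA replicate 2 or LA+NTP replicate 2 and that of Zdhhc4 without LA replicate 1, and after removal of the trend with GC content Lypla2 (log2 fold change 0.61) and Zdhhc8 (0.72) were called, where 5.73% of all genes were. Each NTP comparison shares its FFA libraries with the FFA comparison, so a high or low FFA library moves both.

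**Figure D2:**
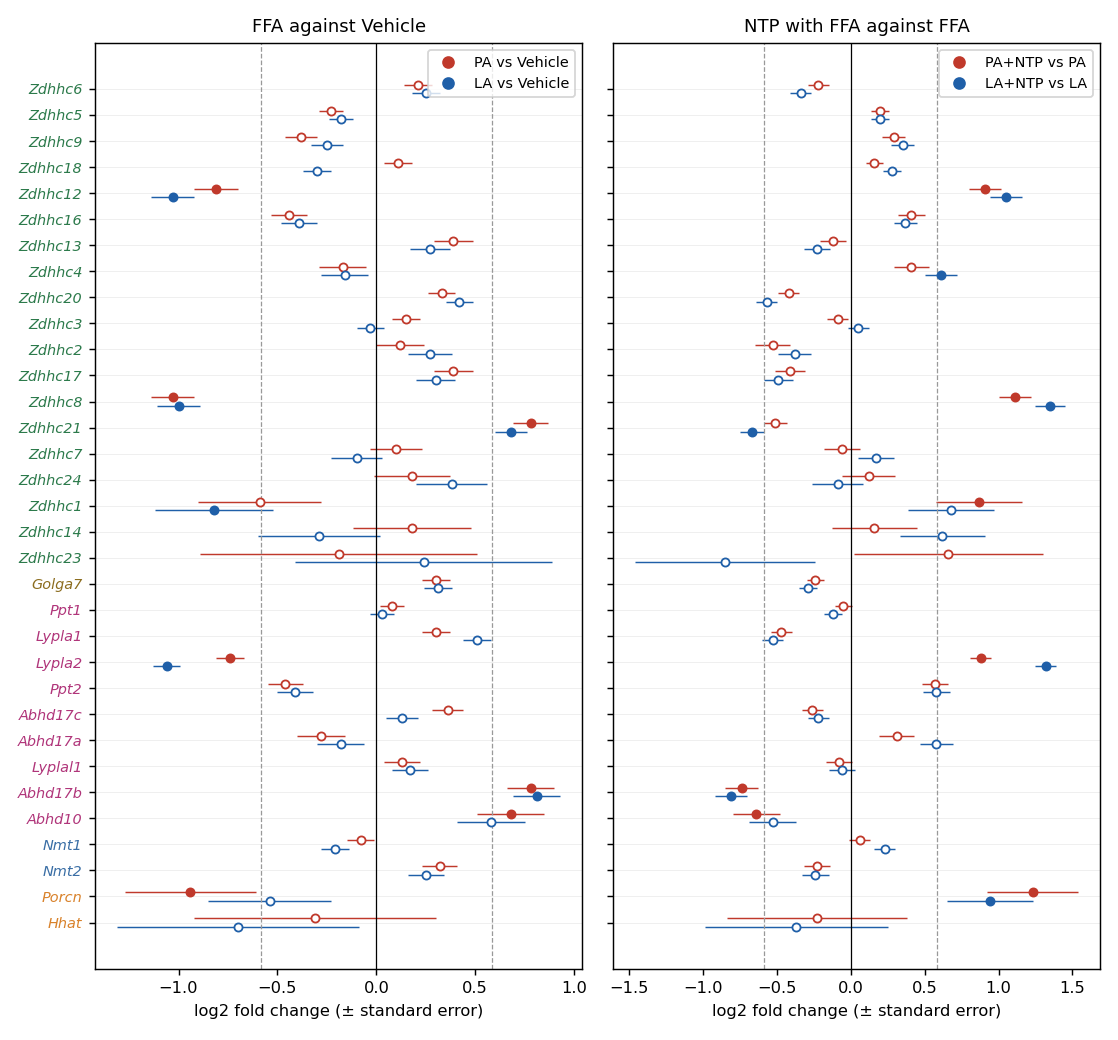
Log2 fold change with its standard error for the 33 tested genes, from the fit over all 10 libraries, with FFA against Vehicle on the left and NTP with FFA against FFA alone on the right. Filled points were called, open points were not, dashed lines mark a fold of 1.5, and gene names are coloured by role as in the plot of levels. Zdhhc8 reached -1.03 with PA and 1.35 in LA+NTP against LA, and Abhd17b moved from 0.78 with PA to -0.74 in PA+NTP against PA.

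Among the palmitoyltransferases, Zdhhc8, known best from neurons, stood at 5.05 and 5.10 FPKM in Vehicle, 2.06 and 2.65 in PA, 5.54 and 5.38 in PA+NTP, 2.64 and 2.27 in LA and 6.68 and 6.25 in LA+NTP. Every PA and LA library lay below every other library. The log2 fold change was -1.03 ± 0.11 (SE) with PA (adjusted p = 6.90e-06) and -1.0 ± 0.11 with LA (adjusted p = 1.16e-05). It was 1.11 ± 0.11 in PA+NTP against PA (adjusted p = 3.23e-06) and 1.35 ± 0.10 in LA+NTP against LA (adjusted p = 2.96e-07), all by edgeR. Its closest relative, Zdhhc5, which palmitoylates CD36 at the cell surface, was far more abundant, at 30.9 to 38.6 FPKM. Zdhhc5 differed in the same comparisons by -0.23, -0.18, 0.20 and 0.20 on the log2 scale, past the adjusted p but below the fold. The ratio of Zdhhc8 to Zdhhc5 FPKM was 0.14 in both Vehicle libraries, 0.07 to 0.09 in PA and LA, and 0.14 to 0.18 with NTP.

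Zdhhc12, a palmitoyltransferase of the endoplasmic reticulum and Golgi, stood at 21.7 and 20.6 FPKM in Vehicle, 11.5 and 12.1 in PA, 22.8 and 23.2 in PA+NTP, 11.4 and 8.70 in LA and 21.2 and 21.9 in LA+NTP. The 4 FFA-only libraries did not overlap the other 6. Its log2 fold change was -0.81 ± 0.11 with PA (edgeR adjusted p = 4.89e-05), -1.03 ± 0.11 with LA (1.06e-05), 0.91 ± 0.11 in PA+NTP against PA (1.58e-05) and 1.05 ± 0.11 in LA+NTP against LA (2.27e-06). It supplied 9.4 to 10.2% of the summed Zdhhc FPKM in Vehicle and NTP libraries and 4.4 to 5.9% in PA and LA. Exons of Zdhhc12 overlap Pkn3 on the other strand, and whether the counting used strand is not stated in the sources used here, so reads of both genes cannot be told apart there.

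Zdhhc21 moved the other way. It stood at 3.38 and 3.29 FPKM in Vehicle, 5.13 and 5.99 in PA, 4.22 and 3.95 in PA+NTP, 5.23 and 5.15 in LA and 3.19 and 3.53 in LA+NTP. All 4 FFA-only libraries lay above the other 6, and the PA+NTP libraries lay between those of Vehicle and of PA. Against Vehicle the log2 fold change was 0.78 ± 0.09 with PA (edgeR adjusted p = 8.11e-06) and 0.68 ± 0.08 with LA (2.97e-05). It was -0.51 ± 0.08 in PA+NTP against PA (1.83e-04), a fold of 1.43 and so not called, and -0.67 ± 0.08 in LA+NTP against LA (1.19e-05).

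Zdhhc1 and Zdhhc4 each had calls in part of the comparisons. Zdhhc1 stood at 1.63 and 1.28 FPKM in Vehicle, 1.15 and 0.81 in PA, 2.23 and 1.34 in PA+NTP, 0.86 and 0.72 in LA and 1.46 and 1.18 in LA+NTP, on 31 to 146 expected counts per library. Its replicates were far apart, above all in PA+NTP. Its log2 fold change was -0.82 ± 0.30 with LA (edgeR adjusted p = 0.0422) and 0.87 ± 0.29 in PA+NTP against PA (0.0259), and it was not called with PA (-0.59 ± 0.31, 0.129) or in LA+NTP against LA (0.68 ± 0.29, 0.0610). Zdhhc4 stood at 7.87 and 7.59 FPKM in Vehicle, 6.36 and 6.92 in PA, 9.12 and 9.32 in PA+NTP, 6.16 and 7.28 in LA and 10.6 and 10.4 in LA+NTP. Both NTP groups lay above Vehicle and both FFA-only groups below it. For Zdhhc4 the log2 fold change was 0.61 ± 0.11 in LA+NTP against LA (edgeR adjusted p = 4.18e-04) and 0.41 ± 0.12 in PA+NTP against PA (0.0119, below the fold). With FFA alone the Zdhhc4 values were -0.17 ± 0.12 for PA (adjusted p = 0.270) and -0.16 ± 0.12 for LA (0.308).

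Zdhhc6, the endoplasmic reticulum enzyme that palmitoylates calnexin and the transferrin receptor, was the most abundant palmitoyltransferase by its mean. It stood at 37.0 and 37.1 FPKM in Vehicle, 44.1 and 40.3 in PA, 38.0 and 37.3 in PA+NTP, 41.0 and 44.6 in LA and 35.0 and 34.2 in LA+NTP. The FFA-only libraries were again the highest, by log2 fold changes of 0.21 ± 0.07 with PA (edgeR adjusted p = 0.0187) and 0.25 ± 0.07 with LA (0.00778), under the fold. Zdhhc16, which palmitoylates Zdhhc6, differed in the opposite direction, by -0.44 ± 0.09 with PA (adjusted p = 0.00102) and -0.39 ± 0.09 with LA (0.00242). Exons of Zdhhc6 overlap Acsl5 and those of Zdhhc16 overlap Mms19 on the other strand. Abhd10, Golga7, Nmt1, Ppt1, Zdhhc2, Zdhhc3, Zdhhc4 and Zdhhc5 also have exons that overlap a gene on the other strand. The limit given for Zdhhc12 applies to all of these.

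Of the other palmitoyltransferases, Zdhhc9 (a Ras enzyme of the Golgi) had negative log2 differences with both FFA that passed the adjusted p below the fold, at -0.38 with PA and -0.25 with LA. Zdhhc13 and Zdhhc17, both with ankyrin repeats, and Zdhhc20 had positive ones, from 0.27 to 0.42. Zdhhc2, which palmitoylates CKAP4, passed the adjusted p only in the NTP comparisons, at -0.53 ± 0.12 in PA+NTP against PA (edgeR adjusted p = 0.00197) and -0.38 ± 0.11 in LA+NTP against LA (0.00905). For Zdhhc3, Zdhhc7, Zdhhc14, Zdhhc23 and Zdhhc24 no adjusted p was under 0.05 in any of the 4 comparisons. Zdhhc23 rested on 4 to 14 expected counts per library, at which these differences carry standard errors of 0.61 to 0.70 on the log2 scale.

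Among the thioesterases, Lypla2 and Lypla1, the cytosolic acyl-protein thioesterases 2 and 1, differed in opposite directions. Lypla2 stood at 41.1 and 41.4 FPKM in Vehicle, 22.7 and 25.3 in PA, 46.4 and 46.0 in PA+NTP, 18.6 and 19.8 in LA and 49.3 and 49.5 in LA+NTP. The 4 FFA-only libraries lay far below the other 6, and the NTP libraries lay above Vehicle. The log2 fold change of Lypla2 was -0.74 ± 0.07 with PA (edgeR adjusted p = 2.60e-06), -1.06 ± 0.07 with LA (3.30e-07), 0.88 ± 0.07 in PA+NTP against PA (7.43e-07) and 1.32 ± 0.07 in LA+NTP against LA (1.59e-08). Lypla1 stood at 35.0 and 38.0 FPKM in Vehicle, 43.2 and 44.6 in PA, 32.4 and 33.8 in PA+NTP, 53.8 and 47.0 in LA and 35.4 and 36.4 in LA+NTP. All 4 FFA-only libraries were above the others, though the folds stayed under 1.5, with log2 fold changes of 0.30 ± 0.07 with PA (edgeR adjusted p = 0.00392), 0.51 ± 0.07 with LA (7.92e-05), -0.47 ± 0.07 in PA+NTP against PA (1.36e-04) and -0.53 ± 0.07 in LA+NTP against LA (2.60e-05). The ratio of Lypla2 to Lypla1 FPKM was 1.17 and 1.09 in Vehicle, 0.52 and 0.57 in PA, 1.43 and 1.36 in PA+NTP, 0.35 and 0.42 in LA and 1.39 and 1.36 in LA+NTP, so Lypla2 was the more abundant transcript of the pair in 6 libraries and the less abundant in the 4 with FFA alone. With the GC trend removed Lypla1 passed in none of the 4 comparisons, at -0.13 with PA, 0.04 with LA, -0.04 in PA+NTP against PA and 0.02 in LA+NTP against LA, and Lypla2 passed in all 4, at -0.22, -0.50, 0.33 and 0.61. The overlapping gene Gm37988 shares 11.8% of the 31-base words of Lypla1, so part of those reads is of uncertain origin.

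The Abhd17 enzymes, which depalmitoylate Ras proteins at the plasma membrane, also differed among themselves. Abhd17b stood at 6.98 and 8.42 FPKM in Vehicle, 12.6 and 13.4 in PA, 7.59 and 8.61 in PA+NTP, 14.5 and 11.8 in LA and 8.0 and 7.49 in LA+NTP. FFA-only libraries were all above 11 FPKM and the other 6 all below 9. The log2 fold change was 0.78 ± 0.12 with PA (edgeR adjusted p = 1.03e-04), 0.81 ± 0.12 with LA (8.05e-05), -0.74 ± 0.11 in PA+NTP against PA (1.26e-04) and -0.81 ± 0.11 in LA+NTP against LA (2.99e-05). Abhd17a stood at 10.1 to 13.2 FPKM in the FFA-only libraries, 13.3 and 14.4 in Vehicle, 14.9 and 13.9 in PA+NTP and 18.0 and 18.1 in LA+NTP. It passed the adjusted p only with NTP, at 0.31 ± 0.12 in PA+NTP against PA (edgeR adjusted p = 0.0419) and 0.58 ± 0.11 in LA+NTP against LA (5.40e-04), the latter a fold of 1.49. These directions turned with the GC trend removed, to -0.32 and -0.28, and its values with FFA alone went from negative to 0.35 with PA and 0.49 with LA. Abhd17c, at 12.2 to 17.4 FPKM, differed by 0.36 ± 0.08 with PA (adjusted p = 0.00134) and 0.13 ± 0.08 with LA (0.188). The ratio of Abhd17b to Abhd17a FPKM was 0.41 to 0.63 in Vehicle and NTP libraries and 1.09 to 1.24 in the FFA-only libraries. This ratio keeps the trend with GC content, which was 37.7% for Abhd17b and 64.6% for Abhd17a. With that trend removed Abhd17b was at 0.34 with PA and 0.34 with LA, and at -0.30 and -0.25 with NTP under PA and LA. Abhd17a and Abhd17b were then on the same side in each comparison.

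**Figure D3:**
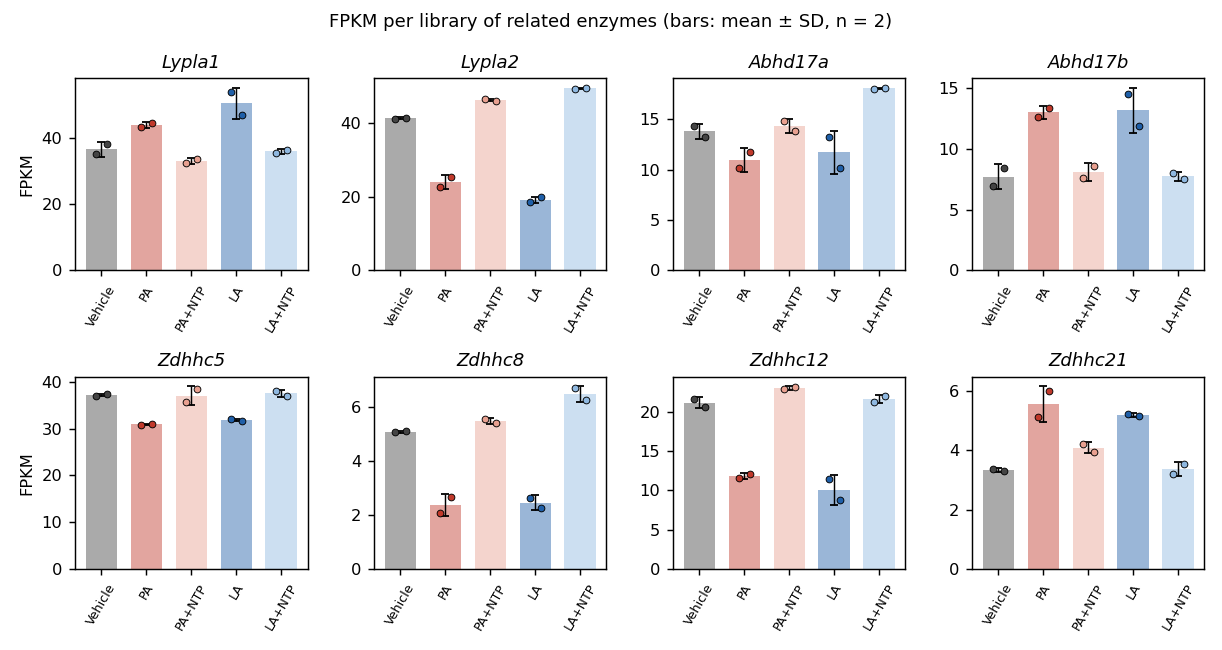
FPKM per library (points) with the group mean and SD (bars, n = 2) for related pairs Lypla1 and Lypla2, Abhd17a and Abhd17b, and Zdhhc5 and Zdhhc8, and for Zdhhc12 and Zdhhc21. Lypla2 fell from 41.3 FPKM in Vehicle to 24.0 in PA and 19.2 in LA while Lypla1 was at 36.5, 43.9 and 50.4 FPKM.

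Abhd10, which acts on mitochondrial peroxiredoxin, stood at 2.79 and 2.60 FPKM in Vehicle, 3.71 and 4.85 in PA, 3.35 and 2.84 in PA+NTP, 4.18 and 3.47 in LA and 3.16 and 2.69 in LA+NTP. FFA-only libraries were above the others, but the lowest of them, at 3.47, lay close to the highest NTP library, at 3.35. The log2 fold change was 0.68 ± 0.17 with PA (edgeR adjusted p = 0.00450) and -0.64 ± 0.16 in PA+NTP against PA (0.00530). With LA it was 0.58 ± 0.17 (0.0120) and in LA+NTP against LA -0.53 ± 0.16 (0.0117), neither called. Ppt1, the lysosomal thioesterase lost in infantile neuronal ceroid lipofuscinosis, was the most abundant gene of the set. It stood at 60.2 and 62.1 FPKM in Vehicle, 61.5 and 64.3 in PA, 63.2 in both PA+NTP libraries, 61.4 and 59.9 in LA and 54.99 and 59.94 in LA+NTP. Its mean was lowest in LA+NTP, at 57.5 FPKM, and highest in PA+NTP, at 63.2 FPKM, and its log2 fold changes in the 4 comparisons ran from -0.12 to 0.08, with SE of 0.06 and no adjusted p under 0.05. Ppt2, also lysosomal, was at 10.5 to 13.0 FPKM in FFA-only libraries and 16.7 to 19.3 in the others, with log2 differences of -0.46 with PA, -0.41 with LA, 0.57 in PA+NTP against PA and 0.58 in LA+NTP against LA that passed the adjusted p below the fold. Of its 31-base words, 33.9% are shared with the overlapping gene Gm20460. Lyplal1 passed in no comparison, at 11.5 to 13.0 FPKM.

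Golga7, the partner that Zdhhc9 needs for activity on Ras proteins, stood at 44.7 and 45.6 FPKM in Vehicle, 53.9 and 55.5 in PA, 48.0 and 47.6 in PA+NTP, 57.5 and 51.6 in LA and 44.4 and 46.4 in LA+NTP. The FFA-only libraries were the highest. Its log2 fold change was 0.30 ± 0.07 with PA (edgeR adjusted p = 0.00198) and 0.31 ± 0.07 with LA (0.00169), under the fold, where Zdhhc9 differed by -0.38 ± 0.08 and -0.25 ± 0.08. Nmt1, which myristoylates proteins as they are made, stood at 62.5 and 60.3 FPKM in Vehicle, 54.0 and 58.8 in PA, 58.0 and 65.1 in PA+NTP, 50.3 and 52.4 in LA and 63.4 and 60.6 in LA+NTP. LA libraries were the lowest, at a log2 difference of -0.21 ± 0.07 (adjusted p = 0.0292), while with PA it was -0.08 ± 0.07 (0.367). Nmt2, at 21.6 to 28.5 FPKM, differed by 0.32 ± 0.09 with PA (adjusted p = 0.00989) and 0.25 ± 0.09 with LA (0.0342). The ratio of Nmt2 to Nmt1 FPKM was 0.35 and 0.38 in Vehicle, 0.47 to 0.53 with FFA alone and 0.35 to 0.39 with NTP. With the GC trend removed, Golga7, Nmt1 and Nmt2 did not pass the adjusted p in any FFA or NTP comparison. Zdhhc9 then passed with PA, at -0.30, and not with LA. Nmt2 turned to -0.05 with LA, 0.03 in PA+NTP against PA and 0.12 in LA+NTP against LA.

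Porcn, the acyltransferase of Wnt proteins, stood at 0.91 and 0.84 FPKM in Vehicle, 0.29 and 0.52 in PA, 1.07 and 1.09 in PA+NTP, 0.63 and 0.52 in LA and 1.08 and 1.21 in LA+NTP. The FFA-only libraries were the lowest, on few counts (7 in the shallow PA replicate 1 and 23 to 38 in the other 3). The log2 fold change was -0.94 ± 0.33 with PA (edgeR adjusted p = 0.0298), 1.23 ± 0.31 in PA+NTP against PA (0.00544) and 0.94 ± 0.29 in LA+NTP against LA (0.0129). With LA it was -0.54 ± 0.31 (0.184) and not called. Hhat, at 0.08 to 0.33 FPKM and 7 to 25 expected counts, had standard errors of 0.61 to 0.62 on the log2 scale in these comparisons and its differences, from -0.70 to -0.23, were not detectable at this depth.

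The NTP groups were also set against Vehicle. In PA+NTP against Vehicle, 0 of 33 were called by edgeR or DESeq2, where 2.85% of all tested genes were called by edgeR, and 5 had an unadjusted p under 0.05. For counts at an unadjusted p, here and in the next paragraph, the share of all genes is not given, so they have no background. By the adjusted p alone there were 2 (10.1% of all genes): Zdhhc18, a Golgi enzyme of Ras proteins, at 0.27 ± 0.06 (edgeR adjusted p = 0.0144), and Zdhhc2 at -0.40 ± 0.12 (0.0407). In LA+NTP against Vehicle, 0 of 33 were called by either tool (0.0922% of all genes by edgeR), 4 had an unadjusted p under 0.05, and 0 passed the adjusted p alone (0.284% of all genes). The largest differences there among genes above 1 FPKM were those of Zdhhc4 (0.45 ± 0.11, adjusted p = 0.0973), Abhd17a (0.40 ± 0.11, 0.126) and Zdhhc8 (0.35 ± 0.10, 0.127).

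PA against LA called 0 of 33 by edgeR and by DESeq2 (3.23% of all genes by edgeR), with 5 at an unadjusted p under 0.05, and 2 passed the adjusted p alone (11.1% of all genes). Zdhhc18 stood at 17.8 and 17.2 FPKM in Vehicle, 18.1 and 18.8 in PA, 21.5 in both PA+NTP libraries, 13.8 and 13.6 in LA and 17.2 and 17.0 in LA+NTP. Its LA libraries lay below all others, and the difference of PA from LA was 0.42 ± 0.07 on the log2 scale (edgeR adjusted p = 9.84e-04). Lypla2 was higher in PA than in LA by 0.32 ± 0.07 (adjusted p = 0.0113), but this passed neither without PA replicate 2 (adjusted p = 0.159) nor without LA replicate 1 (0.122). The NTP effect did not pass as different under PA than under LA: the test of that contrast called 0 of 33 by edgeR and by DESeq2, as it did 0% of all genes by edgeR, and 1 of 33 had an unadjusted p under 0.05. The FFA doses of these groups differ, and a p over the threshold does not show that the effects were alike.

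The direction of change followed the GC content of the transcripts. The genes called lower with PA or LA had a transcript GC content of 57.4 to 61.4%, and those called higher one of 37.7 to 46.1%. Across the 33 genes, which are not independent replicates, Spearman's rho between GC content and log2 fold change was -0.77 with PA, -0.84 with LA, 0.83 in PA+NTP against PA and 0.81 in LA+NTP against LA. Across all 14016 tested genes with a GC value it was -0.52, -0.64, 0.57 and 0.68, so the relation ran through the whole table. Not every gene of high GC content was called lower with an FFA: Abhd17a (64.6% GC), Zdhhc18 (58.8%), Zdhhc14 (58.2%) and Zdhhc7 (57.9%) were at -0.28, 0.11, 0.18 and 0.10 with PA and at -0.18, -0.30, -0.29 and -0.10 with LA. Of the genes called higher, Abhd10 (46.1%) was at 0.68 with PA, above most genes of like GC content.

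With the GC trend taken out of each library, the differences shrank, and no enzyme was called in either FFA comparison. By the adjusted p alone, 6 were then lower with PA, where 12.8% of all genes were (Zdhhc8 at -0.58, Zdhhc12 at -0.39, Zdhhc9 at -0.30, Zdhhc16 at -0.27, Zdhhc5 at -0.23 and Lypla2 at -0.22). Another 7 were higher, where 18.7% of all genes were: Abhd10 at 0.55, Zdhhc18 at 0.53, Zdhhc7 at 0.46, Abhd17c at 0.45, Zdhhc21 at 0.39, Abhd17a at 0.35 and Abhd17b at 0.34. With LA, 3 were lower, where 7.71% of all genes were (Zdhhc12 at -0.57, Zdhhc8 at -0.51 and Lypla2 at -0.50) and 3 higher, where 9.56% of all were (Abhd17a at 0.49, Abhd17b at 0.34 and Zdhhc21 at 0.25). In these FFA comparisons Lypla2, Zdhhc8, Zdhhc12, Abhd17b and Zdhhc21 kept their direction and passed the adjusted p at a smaller size. In the NTP comparisons Abhd17b (-0.30 under PA, edgeR adjusted p = 0.0518, and -0.25 under LA, 0.0922) and Zdhhc21 (-0.12, 0.285, and -0.16, 0.152) no longer passed it. The removal takes away any difference that goes with GC content, whatever its source, and the source of the trend was not tested.

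**Figure D4:**
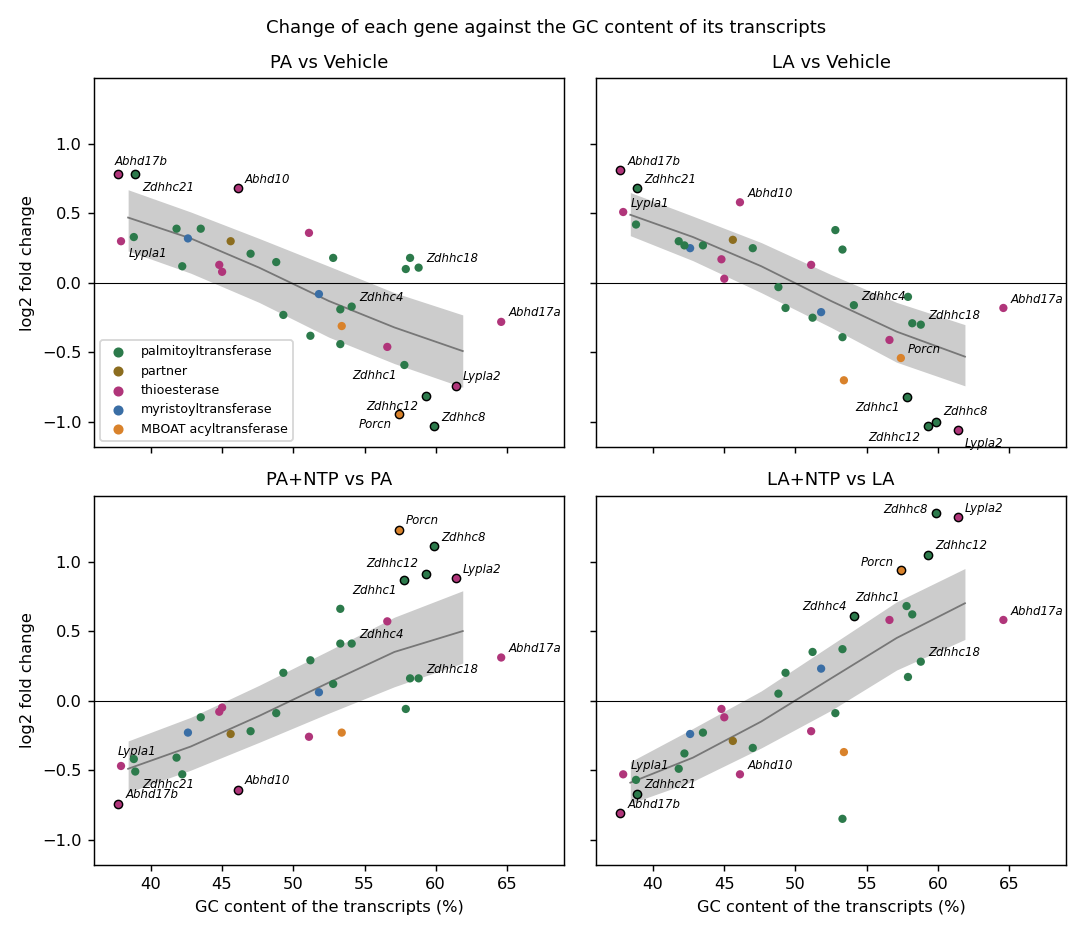
Log2 fold change of each of the 33 tested genes (points, coloured by role, black rim when called) against the GC content of its transcripts in percent, for the 4 comparisons. The grey line and band give the median and the middle 50% of all tested genes in GC bins. Points run from upper left to lower right with FFA and the other way with NTP, with rho from -0.84 to 0.83, and Lypla2, Zdhhc8, Zdhhc12 and Porcn lie at or beyond the edge of the band at high GC content in most of the panels.

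Proteins that carry these lipids were described by a list of 36 genes, all tested. In it, 3 were higher and 1 lower with PA (6.00% and 8.92% of all genes), 3 higher and 1 lower with LA (3.53% and 7.11%), 0 higher and 3 lower in PA+NTP against PA (8.74% and 5.11%), and 1 higher and 6 lower in LA+NTP against LA (11.7% and 7.57%). Tfrc, the transferrin receptor, stood at 10.0 and 9.88 FPKM in Vehicle, 20.9 and 20.2 in PA, 18.0 and 15.3 in PA+NTP, 16.8 and 16.0 in LA and 10.7 and 10.6 in LA+NTP. It rose by 1.08 ± 0.07 on the log2 scale with PA and by 0.77 ± 0.07 with LA and was at -0.67 ± 0.07 in LA+NTP against LA, while PA+NTP remained above Vehicle (0.72 ± 0.07). Yes1, a Src family kinase with myristate and palmitate, rose by 0.71 ± 0.08 with each FFA, and was at -0.78 ± 0.08 and -0.83 ± 0.07 with NTP under PA and LA. Cd36 was at 27.4 and 28.7 FPKM in Vehicle, 38.6 and 40.7 in PA, 25.4 and 24.1 in PA+NTP, 40.5 and 39.3 in LA and 25.6 in both LA+NTP libraries. Its log2 fold change was -0.74 ± 0.06 in PA+NTP against PA (edgeR adjusted p = 6.81e-07) and -0.69 ± 0.06 in LA+NTP against LA (4.82e-07). Canx (calnexin) was higher with PA (0.64 ± 0.06) and lower with NTP under LA (-0.59 ± 0.06). Past the adjusted p but under the fold, it was at 0.45 ± 0.06 with LA and -0.58 ± 0.06 with NTP under PA. Lamtor1, a lysosomal scaffold with myristate and palmitate, was lower with LA (-0.64 ± 0.07) and higher with NTP under LA (0.67 ± 0.07). Its values with PA (-0.41 ± 0.07) and with NTP under PA (0.53 ± 0.07) also passed the adjusted p under the fold. Gnai3, an inhibitory G protein subunit, was higher with LA (0.59 ± 0.07) and lower with NTP under LA (-0.65 ± 0.06). With PA (0.58 ± 0.07) and with NTP under PA (-0.58 ± 0.07) Gnai3 passed the adjusted p and lay just under the fold. Of its relatives, Gnai1 was lower with NTP under PA (-0.66 ± 0.14) and LA (-0.71 ± 0.14), and Gnai2 was lower with PA (-0.59 ± 0.08). Under the fold, Gnai1 was at 0.50 ± 0.15 with PA and 0.41 ± 0.15 with LA. Gnai2 was at -0.47 ± 0.08 with LA and at 0.52 ± 0.08 with NTP under each FFA, also under the fold. The median log2 fold change of the list was -0.05, 0.01, -0.11 and -0.03 in these 4 comparisons, against -0.01, -0.01, 0.01 and 0.01 over all genes.

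The other enzymes and partners of protein lipidation, among them farnesyl and geranylgeranyl transferases, were 13 tested genes of 16. Of these 1 was called higher with PA, Selenok, the partner of Zdhhc6 (0.59 ± 0.07, edgeR adjusted p = 2.27e-05), and 0 in the other 3 comparisons. Of all genes, 14.9%, 10.6%, 13.9% and 19.3% were called in either direction. Median log2 fold changes of the list were 0.35, 0.31, -0.33 and -0.31. By the adjusted p alone, 8 were higher and 1 lower with PA (23.5% and 22.0% of all genes), and 8 and 2 with LA (20.8% and 20.5%). With NTP, 3 were higher and 7 lower under PA (21.7% and 23.0%), and 2 and 7 under LA (25.9% and 25.6%). Genes that supply palmitoyl-CoA were 15 tested of 16. In PA against Vehicle 1 was called higher and 2 lower (6.00% and 8.92% of all genes), and in LA against Vehicle 1 and 1 (3.53% and 7.11%). In PA+NTP against PA 0 were called higher and 1 lower (8.74% and 5.11%), and in LA+NTP against LA 1 and 1 (11.7% and 7.57%). Acsl4, a long-chain acyl-CoA synthetase, stood at 40.3 and 42.4 FPKM in Vehicle, 63.5 and 66.3 in PA, 41.3 and 36.6 in PA+NTP, 64.1 and 60.1 in LA and 38.6 and 38.9 in LA+NTP. It rose by 0.68 ± 0.06 with PA and by 0.63 ± 0.06 with LA, and with NTP its log2 fold change was -0.79 ± 0.06 under PA and -0.72 ± 0.06 under LA. Scd1, the stearoyl-CoA desaturase, stood at 444 and 459 FPKM in Vehicle, 201 and 212 in PA, 204 and 206 in PA+NTP, 437 and 428 in LA and 451 and 468 in LA+NTP. It fell by 1.09 on the log2 scale with PA (SE 0.06), and in PA+NTP against PA it was at -0.07 ± 0.06. Slc27a5, a bile acid and fatty acyl-CoA ligase, was also lower with PA (-0.63 ± 0.15). Fasn, which makes palmitate, was lower with LA (-0.65 ± 0.06) and higher in LA+NTP against LA (0.85 ± 0.06). Without a call, it also lay lower in PA, at 6.83 and 7.04 FPKM against 10.5 and 10.3 in Vehicle. In PA+NTP it stood at 10.1 and 10.7 FPKM. The median log2 fold change of this list was -0.14, 0.03, -0.16 and -0.13.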

How the data were processed

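RNA of 10 libraries was sequenced, and the authors aligned reads with HISAT and Bowtie2 and quantified genes with RSEM on mm10, versions not given in the sources used here. The deposited tables give expected counts (estimated reads, not normalized) and FPKM computed by the authors, for genes at an FPKM of 0.01 or more. Absent genes were set to 0. Of 18055 gene IDs, 17998 were named by ID and 11 by accession from a RefSeq table on GRCm38.p6.

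The expected counts, rounded to whole numbers, entered edgeR 4.0.16 (quasi-likelihood test, TMM, filterByExpr) in R 4.3.3, in 1 fit over 5 groups without a block, with Benjamini-Hochberg adjustment over 14097 genes. Calls used the study's fold threshold of 1.5. SE is the log2 fold change divided by the square root of F. With 2 libraries against 2, an exact permutation test cannot go below p = 0.333, so p-values rest on the spread pooled over groups and genes. Replicates differed beyond sampling noise (chi-square per gene 3.81 to 16.35). GC content came from GENCODE transcripts, and its trend was removed with a loess fit (span 0.4) per library. Alternatives were DESeq2 1.42.0, limma 3.58.1 on log2(FPKM + 1) and log2(FPKM + 0.1), other scalings and filters, a replicate block and leaving out each library. In data simulated for PA against Vehicle with 13878 genes, 88 of 100 genes changed 2-fold and 96 of 100 changed 3-fold were called, with 2 false calls. The simulated counts had the same spread for every gene and no trend with GC content. They therefore do not show how many calls such a trend would add.

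The members, gene lists and tests were chosen with earlier results of these data known. Values in every library are given for genes called in any FFA or NTP comparison and for the 5 with the highest mean FPKM, and 8 genes of other lists were named, each called in at least 2 comparisons. Zdhhc18, Selenok, Gnai1, Gnai2, Scd1 and Slc27a5 were named after their values were seen. The lymphocyte marker list is not reported here.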

Additional observations from a re-analysis of the deposited data

Results flagged for a closer look

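Zdhhc18 differed between the FFA treatments. PA against LA gave a log2 fold change of 0.42 by edgeR's test of the difference (adjusted p = 9.84e-04), which was under the 1.5-fold threshold. Against the shared Vehicle its value was 0.11 with PA and -0.30 with LA, both PA libraries lying above both Vehicle libraries and both LA libraries below them. With the GC trend removed it was at 0.53 with PA and 0.13 with LA, so its direction with LA was not kept, and PA against LA was at 0.39. Lypla2 also differed by that test, with a log2 fold change of 0.32 for PA against LA (adjusted p = 0.0113). It was lower with each FFA and lower still with LA. Palmitate was given at 200 μM and linoleate at 12 μM, so these differences cannot be told apart from dose.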

How the results depend on the processing

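Counts of called enzymes are given as higher and lower in PA against Vehicle, LA against Vehicle, PA+NTP against PA and LA+NTP against LA, where the reported counts were 3 and 4, 2 and 4, 5 and 2, and 5 and 2. By the adjusted p alone they were 11 and 8, 10 and 10, 11 and 11, and 12 and 12, with 2 in PA+NTP against Vehicle and 2 in PA against LA. With the GC trend removed they were 0 and 0, 0 and 0, 1 and 0, and 2 and 0. With the replicate block added they were also 0 and 0, 0 and 0, 1 and 0, and 2 and 0. Of all genes, 8.44%, 3.23%, 6.15% and 5.73% were then called in either direction, and 8.58%, 3.33%, 6.38% and 5.85% with the block. The limma fit on log2(FPKM + 1), which understates folds of low genes, gave 1 higher in LA against Vehicle and 1 lower in each NTP comparison. Of 14097 genes, that fit called 186 higher in LA against Vehicle, and 296 and 495 lower with NTP under PA and LA. Over all 4 comparisons that fit kept 17 of the 27 reported calls. Library-size scaling and limma on log2(FPKM + 0.1) gave 1 lower in PA+NTP against PA, where 518 and 506 of 14097 genes were lower. No filter on low counts gave 9 higher in LA+NTP against LA, where 1768 of 18027 genes were higher. The cause of these shifts was not tested. Leaving out each library gave 2 to 3 higher and 3 to 5 lower with PA, 2 to 4 and 3 to 4 with LA, 5 to 5 and 2 to 3 in PA+NTP against PA, 4 to 6 and 2 to 5 in LA+NTP against LA, and 0 to 0 in the other 4 counts. Without LA replicate 2, 4 were higher in LA against Vehicle and 5 lower in LA+NTP against LA. A lone library left in a group is assumed to vary like the other groups. For left-out libraries the share of all genes is not given, so those counts have no background.

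Replicate numbers, here and for left-out libraries, are those of the sample titles, while the deposited tables carry other numbers (a shared 3 for each replicate 2, and 1 or 2 for replicate 1). By the title numbers, replicate differences correlated between groups at only -0.069 to 0.127. That does not show that the samples were unpaired. The title numbers part the deposited 3 from the others, but a split by the deposited 1 and 2 was not tested. The replicate block gave 3 and 4, 2 and 4, 5 and 2, and 6 and 2. Of 14097 genes it called 857 and 1272, 500 and 1019, 1218 and 738, and 1665 and 1074. With it, all 89 values that pass the adjusted p kept their side. Of these 89, 33 still passed the adjusted p on the same side once the GC trend was removed, 17 kept both that and any call by fold, and 3 passed on the other side. It reversed 13, given here with the block added in brackets. With PA, Lypla1 went to -0.13 (-0.13) and Zdhhc20 to -0.07 (-0.07). With LA, Nmt2 went to -0.05 (-0.04), Zdhhc17 to -0.02 (-0.03), Zdhhc18 to 0.13 (0.13) and Zdhhc20 to -0.01 (-0.01). In PA+NTP against PA, Nmt2 went to 0.03 (0.04) and Abhd17a to -0.32 (-0.33). In LA+NTP against LA, Nmt2 went to 0.12 (0.12), Lypla1 to 0.02 (0.02), Abhd17a to -0.28 (-0.28), Zdhhc13 to 0.08 (0.08) and Zdhhc18 to -0.29 (-0.29). DESeq2 kept 84 of the 89, and no other alternative turned a direction.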
